A study of Mus musculus with 2 samples.

Results

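The endothelial cells that line the blood side of the control mouse abdominal aorta are described here: the 217 cells of the PBS library that the authors' deposited annotation places in its class BEC (blood endothelial cells), out of 10477 cells in the series. They were taken by that annotation and by the library label alone. The series holds 2 droplet libraries of wild-type C57BL/6J mice. One is from a pool of 7 abdominal aortas of mice injected with LCWE, and the other from a pool of 9 abdominal aortas of mice injected with PBS, the vehicle. LCWE is a cell wall extract of Lactobacillus casei that causes vasculitis in mice, and the resulting disease is used to study Kawasaki disease, an inflammation of medium-sized arteries in children. Aortas were collected 2 weeks after injection, between the left renal artery and the bifurcation, and dissociated with enzymes. Animals in a pool cannot be told apart, so each condition is 1 sample: no test between conditions is possible, and cells are not replicates of a condition.

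As background, a continuous single layer of endothelial cells separates blood from the smooth muscle of the aortic wall. It holds the vessel closed with junction proteins, sets its tone with nitric oxide, endothelin and prostacyclin, keeps the surface free of clots and controls which leukocytes cross. Endothelial cells of large arteries differ from those of capillaries, veins and lymphatics in their transcription factors, connexins and matrix genes, and the steady laminar flow of straight arterial segments keeps Klf2, Klf4 and their targets on.

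The control cells made up 4.03% of the 5386 cells of their library (exact Clopper-Pearson interval 3.52% to 4.59%) and 2.66% of its UMIs (unique molecular identifiers, 1 for each captured transcript). They held 1665902 UMIs, with a median of 5846 UMIs and 2330 genes per cell and a range of 1671 to 28463 UMIs. A median of 6.23% of their UMIs was mitochondrial. The other control classes used here are 4141 smooth muscle cells, 868 fibroblasts, 29 lymphatic endothelial cells and 116 leukocytes of all kinds. Levels are in CPM: the UMIs of a gene over all cells of a class, per 1000000 UMIs of that class. Brackets and ranges called intervals are exact 95% intervals, Poisson for CPM and binomial for ratios and shares. They cover counting error only, not the differences between animals. The 2 libraries share 8 cell barcodes, of which 1 belongs to a BEC.

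All 5 defining markers were found in the control cells. Pecam1, the adhesion molecule CD31 of endothelial junctions, stood at 4028 CPM (3932 to 4125) and in 100% of cells, against 9.43 CPM in smooth muscle cells, 19.6 in fibroblasts, 629.6 in lymphatic endothelium and 389 in leukocytes. Single cells held between 5 and 107 Pecam1 UMIs, with a median of 27. Cdh5, which codes for VE-cadherin of adherens junctions, stood at 645 CPM (607 to 684), against 0.206 CPM in smooth muscle cells, 0.822 in fibroblasts, 462 in lymphatic endothelium and 51.7 in leukocytes. Both genes are shared with lymphatic endothelium. Klk10, Klk11 and Cytl1 were not: they are listed at 0, 0 and 1 UMI in the 29 lymphatic cells. Summed, the 5 markers gave 8 to 466 UMIs in each control cell, with a median of 106. Of the PBS library's UMIs of Klk10, 93.9% lay in these 217 cells, and of those of Cytl1 94.5%.

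Markers of leukocytes, lymphatic endothelium, adipocytes and mesothelium were near 0, and those of smooth muscle cells and fibroblasts were not. The 6 general leukocyte markers summed to 82.8 CPM in control BEC, against 6514 CPM in control leukocytes, with a median of 0 UMIs per cell. Single BEC held up to 43 UMIs of these markers, and 5 cells held 5 or more. The 8 lymphatic markers summed to 29.4 CPM, against 28611 CPM in lymphatic endothelium, and Pdpn and Reln were at 0. All 5 adipocyte and all 6 mesothelial markers were at 0. Of the 10 smooth muscle markers none was at 0, and their sum was 905 CPM, against 55942 CPM in smooth muscle cells, which held 85.4% of the library's UMIs. The most of these UMIs in 1 BEC was 234, and the median 5. Of the 10 fibroblast markers none was at 0 either, and their sum was 1474 CPM, against 107075 CPM in fibroblasts, with a median of 9 UMIs per cell and a highest of 69. Pi16, a secreted protein, gave 428.6 CPM of it in 77.4% of BEC, while Pdgfra, Dpt and Lum had 2, 4 and 8 UMIs. The 8 pericyte markers summed to 123 CPM, against 5445 CPM in smooth muscle cells. The part that smooth muscle and fibroblast RNA play in the genes below was not tested, and shares of smooth muscle cells with a UMI, from a median of 11880 UMIs per cell, are given beside shares of BEC. Among the leukocytes, 5 cells with 52 to 166 Cytl1 UMIs each held 547 of the class's 555, and the other leukocytes had at most 2, although these 5 cells hold 14.8% of the UMIs of the class. Of the 25 genes with the highest ratios described below, 15 had leukocytes as the highest other class, and the same 5 cells held 72.7% to 100% of their leukocyte UMIs (median 100%).

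**Figure D1:**
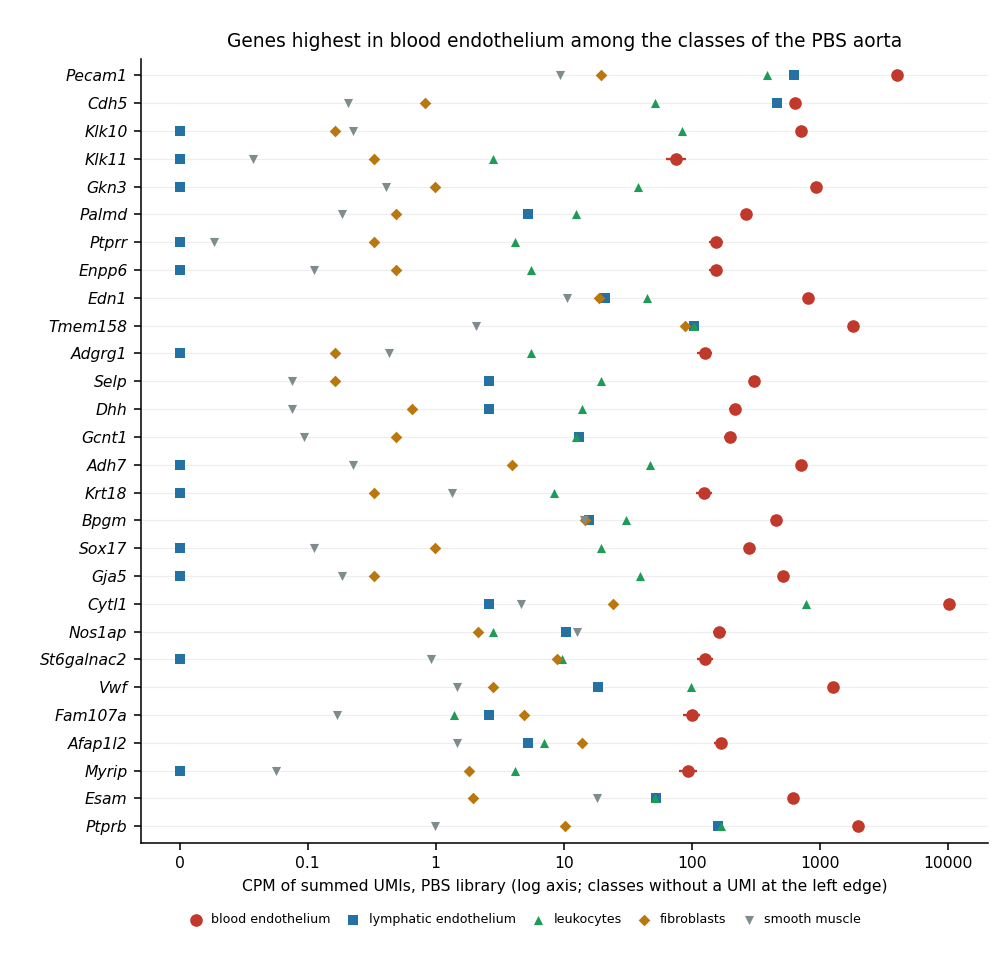
Level of 28 genes in each class of the PBS library, in CPM on a logarithmic axis; each row is a gene, each symbol a class and values of 0 are drawn at the left edge. Bars on blood endothelium are exact 95% intervals. Pecam1, Cytl1 and Klk10 lie far to the right in blood endothelium, while Cdh5 of blood and lymphatic endothelium lie close together.

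The vessel bed that the cells resemble was read from marker lists. The 12 large-artery markers summed to 20141 CPM in control BEC, and all 12 were present. Every one of the 217 cells had at least 7 UMIs of them, the median cell 141 and the richest 520. Cytl1 gave 10129 CPM and Clu 4475 CPM of the sum in BEC, so it rests mainly on few genes. Klk10, Klk11 and Cytl1 are also defining markers of blood endothelium, so the list is in part the class's own. Smooth muscle cells reached 1308 CPM of the large-artery list, most of it from Clu (625 CPM) and Fbln5 (563 CPM). Capillary markers summed to 29.4 CPM, with 6 of 10 at 0: Gpihbp1, which anchors lipoprotein lipase, the fatty acid transporter Cd36, Car4, Aplnr, Meox2 and Tcf15. In this class 3 UMIs, the floor used for ratios, equal 1.8 CPM, and a count of 0 UMIs does not show absence. Lymphatic endothelium had 2073 CPM of the same capillary list. Venous markers summed to 801 CPM, but Ackr1, the chemokine receptor of venules, and Tll1 were at 0, and the venous transcription factor Nr2f2 had 9 UMIs, at 5.4 CPM against 501 CPM in lymphatic endothelium. The venous sum came mainly from Selp, Plvap and Slco2a1, which other vessels also express.

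**Figure D2:**
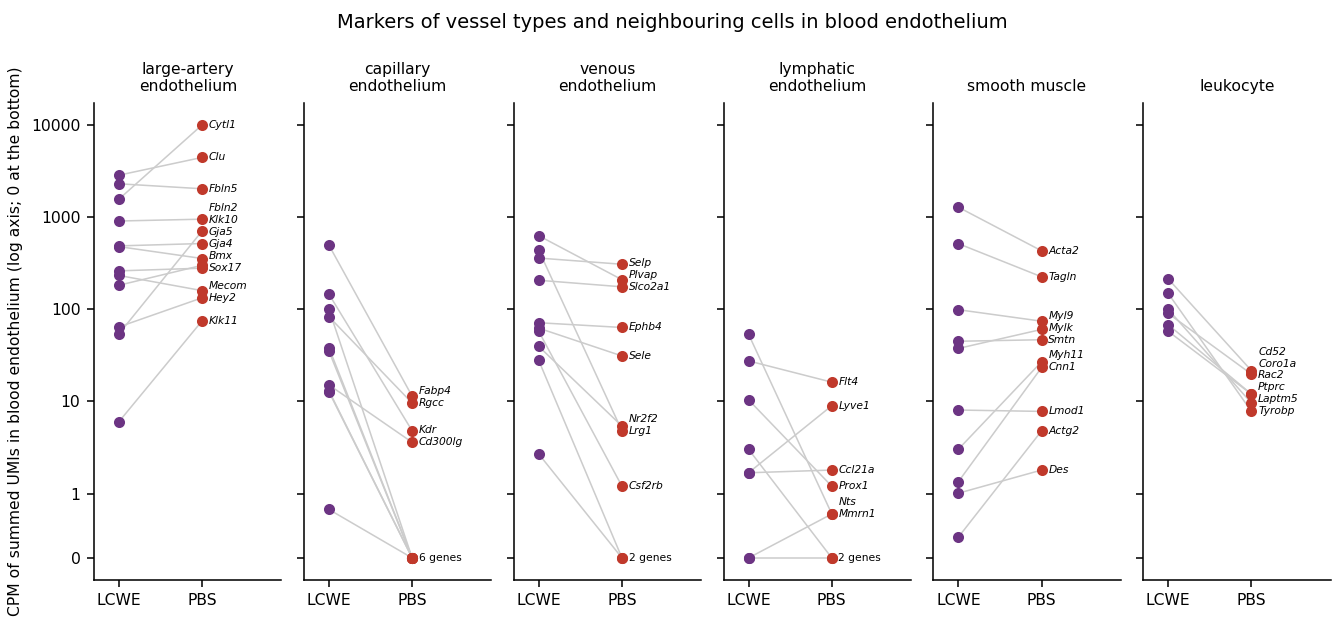
Level in blood endothelium of the markers of large arteries, capillaries, veins, lymphatics, smooth muscle and leukocytes, 1 panel each, in CPM on a logarithmic axis with 0 at the bottom, LCWE library left and PBS library right; each point is a gene and lines join the values of 1 gene. All 12 large-artery markers are above 0 in PBS cells, with Cytl1 the highest at 10129 CPM, while 6 of 10 capillary markers are at 0.

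Of 4657 genes with at least 50 UMIs in control BEC, 123 (2.64%) were at least 4-fold above the highest of the other 4 control classes with the lower end of the interval above 2. Leukocytes were the highest other class for 50 of them, lymphatic endothelium for 39, smooth muscle for 20 and fibroblasts for 14. Since the authors named the class from the same counts, these values describe it and test nothing. Over all genes with at least 50 UMIs the median log2 ratio to the highest other class was -0.36. The 25 genes with the highest ratios fell into a few roles, and 15 of them had leukocytes as the highest other class.

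Regulators and signals came first. Sox17, a transcription factor of arterial endothelium (chromosome 1, 4490931 to 4497354), stood at 280.3 CPM (255 to 307) in control BEC, against 0.112 CPM in smooth muscle, 0.986 in fibroblasts, 0 in lymphatic endothelium and 19.6 in leukocytes, a ratio of 14.3 (8.45 to 26.4) over the last. It was found in 77.9% of BEC and in 0.145% of smooth muscle cells, which are deeper. Edn1, the gene of the vasoconstrictor endothelin-1 (chromosome 13, 42301476 to 42307990), reached 806 CPM, 18 times the leukocyte level (12.7 to 26.5). Its UMIs per cell ran between 0 and 113, with a median of 3, so a few cells held much of it. Dhh, the hedgehog ligand Desert hedgehog, stood at 216 CPM and in 70.0% of BEC and 0.0966% of smooth muscle cells, 15.5 times the leukocyte level. Nos1ap, an adaptor protein of neuronal nitric oxide synthase, stood at 164 CPM, 13 times the smooth muscle level (11.3 to 15).

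A further set was made of surface, junction and granule genes. Gja5, which codes for connexin 40 of arterial gap junctions (chromosome 3, 96904693 to 97077416), stood at 519 CPM (485 to 555) and in 85.3% of cells, against 0.187 CPM and 0.217% of cells in smooth muscle. Ptprb, the phosphatase VE-PTP that acts on the VE-cadherin complex and the Tie2 receptor, stood at 1987 CPM, 11.7 times the leukocyte level. Esam, an adhesion molecule of tight junctions, stood at 622 CPM, against 52.5 CPM in lymphatic endothelium. Ptprb was found in 99.1% and Esam in 94.9% of BEC, against 1.18% and 18.7% of smooth muscle cells, so both mark nearly the whole class. Selp, the leukocyte-binding P-selectin stored in Weibel-Palade bodies, stood at 309 CPM in 60.8% of BEC and 0.0966% of smooth muscle cells, 15.8 times the leukocyte level. Vwf, von Willebrand factor of the same granules, stood at 1263 CPM in 98.6% of BEC and 1.76% of smooth muscle cells, 12.9 times the leukocyte level, and at 18.4 CPM in lymphatic endothelium. Myrip, a linker between granules and the cytoskeleton, stood at 93.6 CPM and was at 0 in lymphatic cells, at least 11.9 times higher. The adhesion receptor Adgrg1 (GPR56) stood at 126 CPM, the receptor phosphatase Ptprr at 155 CPM and Tmem158, a membrane protein, at 1809 CPM. Tmem158 was found in 98.6% of BEC and 2.63% of smooth muscle cells, 17.2 times the lymphatic level.

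Enzymes and secreted proteins made up the rest. Gkn3, a secreted gastrokine (chromosome 6, 87383256 to 87388935), had the highest ratio of all at 24.8 (17 to 37.7): 935 CPM in control BEC, against 37.7 CPM in leukocytes, 0.986 in fibroblasts, 0.411 in smooth muscle and 0 in lymphatic endothelium. Adh7, a dehydrogenase of retinol and alcohol, stood at 712 CPM and 15 times the leukocyte level. Bpgm, which makes 2,3-bisphosphoglycerate and is best known from red cells, stood at 452 CPM, and as 16.8% of smooth muscle cells also had a UMI, 45.8% of the library's Bpgm UMIs lay in BEC. Of the glycan enzymes, Gcnt1 of core 2 O-glycans stood at 198 CPM and the sialyltransferase St6galnac2 at 127 CPM. Enpp6, a choline-releasing phosphodiesterase, stood at 154 CPM, Palmd (palmdelphin) at 267 CPM, Krt18, a keratin, at 125 CPM, Afap1l2 at 169 CPM and Fam107a at 99.6 CPM. Each of these was above every other control class.

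By abundance the class read as matrix-rich. The 15 genes with the most UMIs, mitochondrial and ribosomal genes left out, included Mgp, the matrix Gla protein that inhibits calcification, at 11072 CPM, against 7233 CPM in smooth muscle. Eln, tropoelastin, stood at 8619 CPM, against 6798 CPM in smooth muscle, and every control cell had at least 1 Eln UMI. Bgn, the proteoglycan biglycan, stood at 5817 CPM, against 4008 CPM in smooth muscle, and Sparc at 5084 CPM, against 22296 CPM in fibroblasts. All 4 genes are thus also abundant in smooth muscle or fibroblasts, and the part of smooth muscle RNA in them was not tested. Tm4sf1, a membrane protein of endothelial and other cells, stood at 6697 CPM, 3.5 times smooth muscle, and Clu, the secreted chaperone clusterin, at 4475 CPM, 7.16 times smooth muscle. The other members were Cytl1, Pecam1, Fos, the nuclear RNA Malat1 (25179 CPM), Tpt1 (9456), Tmsb4x (6404), Eef1a1 (5122), Cst3 (5113) and Fth1 (4629).

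Kallikrein-related peptidases are secreted serine proteases best known from skin and glands, and in endothelium Klk10 is known as a gene that laminar flow keeps on. The 13 genes in the list lie on 1 strand of chromosome 7, and 3 of them carried the signal. Klk10 (43781035 to 43785410, plus strand, GRCm38) had 716 CPM (675 to 757) in control BEC, against 0.224 CPM in smooth muscle, 0.164 in fibroblasts, 0 in lymphatic endothelium and 83.9 in leukocytes, a ratio of 8.53 (6.58 to 11.3). It was found in 81.6% of cells, with 0 to 43 UMIs and a median of 4. With every cell thinned to 2000 UMIs it was found in 59.6% of 213 BEC and in 0.0725% of 4139 smooth muscle cells, so the difference was also there at equal depth. Klk11, its upstream neighbour 1.77 kb away (43774604 to 43779263), had 75.6 CPM in 40.1% of BEC and 0.0483% of smooth muscle cells and was at 0 in lymphatic endothelium, at least 9.61 times higher. Klk8, neuropsin (43797577 to 43803826), had 154 CPM in 50.2% of BEC and 0.169% of smooth muscle cells, 1.83 times its leukocyte level of 83.9 CPM and so short of the 4-fold rule. Klk13 had 17 UMIs, Klk7 and Klk9 3 each, and Klk1, Klk4, Klk5, Klk6, Klk12, Klk14 and Klk15 were at 0. Klk9, nearly silent, lies between Klk10 and Klk8. Cytl1, which codes for a small secreted cytokine-like protein (chromosome 5, 37735519 to 37739820), was the third most abundant gene of the class outside mitochondrial and ribosomal genes, at 10129 CPM (9977 to 10283), against 4.66 CPM in smooth muscle, 24.2 in fibroblasts, 2.62 in lymphatic endothelium and 776 in leukocytes. It was found in 99.5% of BEC, with a median of 67 and a highest of 307 UMIs, and in 215 of 4141 smooth muscle cells, with a highest of 8.

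The 250 bases before the start of each of these 4 genes are shown because these genes mark the class and 3 of them lie near each other. The windows come from RefSeq (GRCm38.p6), are on the plus strand, run 5′ to 3′ and carry in capitals every CACCC (core of KLF sites) and AGGAAG (core of ETS sites) on either strand. The positions are chr7:43780804-43781053 for Klk10, chr7:43797327-43797576 for Klk8, chr7:43774367-43774616 and chr7:43776079-43776328 for the 2 listed starts of Klk11, and chr5:37735269-37735518 for Cytl1.
Klk10: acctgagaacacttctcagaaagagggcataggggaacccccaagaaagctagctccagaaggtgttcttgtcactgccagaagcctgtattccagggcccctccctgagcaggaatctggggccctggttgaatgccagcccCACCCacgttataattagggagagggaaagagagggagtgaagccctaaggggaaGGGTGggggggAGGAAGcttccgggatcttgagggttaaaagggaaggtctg
Klk8: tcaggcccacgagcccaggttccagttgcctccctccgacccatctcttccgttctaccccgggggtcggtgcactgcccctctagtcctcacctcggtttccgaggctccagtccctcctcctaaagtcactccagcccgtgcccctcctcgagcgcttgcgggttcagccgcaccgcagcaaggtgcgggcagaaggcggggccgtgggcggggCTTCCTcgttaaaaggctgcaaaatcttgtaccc
Klk11 start 1: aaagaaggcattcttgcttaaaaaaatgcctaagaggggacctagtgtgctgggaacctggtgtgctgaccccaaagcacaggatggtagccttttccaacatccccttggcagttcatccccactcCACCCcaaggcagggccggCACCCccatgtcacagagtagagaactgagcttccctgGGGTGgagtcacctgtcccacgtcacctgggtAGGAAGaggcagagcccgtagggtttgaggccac
Klk11 start 2: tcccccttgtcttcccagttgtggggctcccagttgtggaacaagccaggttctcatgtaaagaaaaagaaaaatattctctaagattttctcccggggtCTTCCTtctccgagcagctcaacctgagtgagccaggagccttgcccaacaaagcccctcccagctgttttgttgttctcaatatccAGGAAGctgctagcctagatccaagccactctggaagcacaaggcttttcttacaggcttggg
Cytl1: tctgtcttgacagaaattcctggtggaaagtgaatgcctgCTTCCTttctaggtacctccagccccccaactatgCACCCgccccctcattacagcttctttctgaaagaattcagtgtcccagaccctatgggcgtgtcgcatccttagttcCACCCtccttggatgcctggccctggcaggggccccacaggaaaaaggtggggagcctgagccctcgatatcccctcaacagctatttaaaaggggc
CACCC matched 2 times for Klk10, 0 times for Klk8, 3 times for the first and 0 times for the second Klk11 start, and 2 times for Cytl1. AGGAAG matched 1 time in each window but that of the second Klk11 start, which has 2 matches. Of 32851 windows of the same length, 52.0% hold CACCC and 29.5% AGGAAG, so matches are common, and a match is a string of letters and not a site shown to be bound. The matches do not overlap each other.

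Gene lists were read by the members with at least 20 UMIs in control BEC, called measured here. Of 7665 genes with that many UMIs, 123 (1.60%) passed the 4-fold rule, with a median log2 ratio of -0.41 to the highest other class. Of 28 lists, 5 had a median of at least 1: kallikreins (3.09, 3 of 13 members measured), large-artery intima (2.89, 18 of 18), arterial (1.65, 19 of 23), venous and venule (1.29, 7 of 15) and disturbed flow (1.04, 12 of 20). Members were listed with results of these data known, and low members are missing from a count of measured ones, so these medians describe and support nothing.

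**Figure D3:**
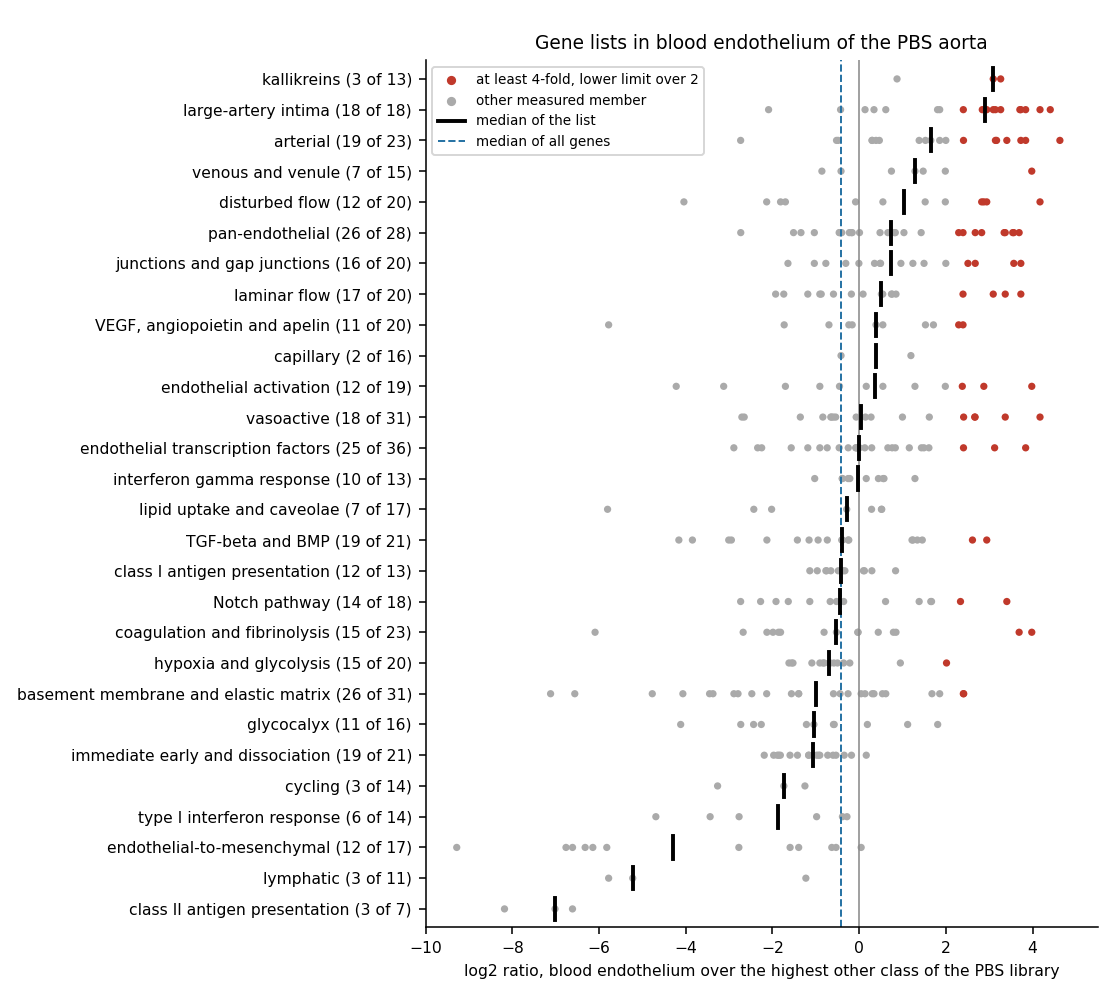
Log2 ratio of control blood endothelium over the highest other control class for the measured members of each list; each point is a gene, black bars are list medians and the dashed line is the median of all genes with at least 20 UMIs (-0.41). Kallikreins, large-artery intima and arterial genes lie furthest right, and class II antigen presentation furthest left.

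Pan-endothelial genes were shared between blood and lymphatic endothelium. Of 28, 26 were measured and 9 passed the 4-fold rule, and in 10 the highest other class exceeded BEC. Nos3, the endothelial nitric oxide synthase, stood at 461 CPM, 10.3 times the lymphatic level (6.41 to 17.8), Icam2 at 912 CPM and 7.09 times, and Tek, the Tie2 receptor, at 607 CPM and 5.26 times. Clec14a stood at 525 CPM, 10.2 times the leukocyte level. On the other side, Kdr, the main VEGF receptor, had 8 UMIs, at 4.8 CPM, against 569 CPM in lymphatic endothelium, Emcn (endomucin) 63.6 CPM, against 422 CPM, and the claudin Cldn5 1035 CPM, against 2119.7 CPM. Flt1, the other VEGF receptor, stood at 68.4 CPM, 4.91 times smooth muscle.

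Arterial genes were mostly highest here, with Notch ligands on both sides. Of 23, 19 were measured and 7 passed the 4-fold rule, among them Bmx (301 CPM, 8.84 times lymphatic endothelium), Mecom (159.7 CPM, 5.3 times smooth muscle), Notch4 (83.4 CPM, at least 10.6 times the lymphatic level of 0) and Sema3g (70.8 CPM). Gja4, connexin 37, stood at 357 CPM and 4.0 times lymphatic endothelium, at the edge of the rule. The ligand Dll4 had 13.8 CPM, against 91.8 CPM in lymphatic endothelium, and the target Hey1 10.2 CPM, against 44.6 CPM. Another ligand, Dll1, stood at 146 CPM and 5.05 times lymphatic endothelium, Jag1 at 148 CPM and 3.14 times fibroblasts, and the target Hey2 at 134 CPM and 2.61 times smooth muscle. Notch1 itself, at 206 CPM, lay under its lymphatic level of 296 CPM. Of the 18 genes of the whole Notch list, 14 were measured, 2 passed (Notch4 and Dll1) and 8 had a higher level in another class, a median log2 ratio of -0.44.

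Vasoactive genes were split between BEC and other classes. Of 31 symbols 18 were measured, with a median log2 ratio of 0.04, and 9 of them were higher in another class. The 4-fold rule was passed by 5: Edn1 and Nos3, given above, Ptgs1, Nt5e and Trpv4. Ptgs1, cyclooxygenase 1, stood at 259 CPM, 6.38 times leukocytes (4.38 to 9.65). Nt5e, which makes adenosine, stood at 159.7 CPM, 6.35 times leukocytes, and Trpv4, a calcium channel opened by flow, at 125 CPM, 5.31 times lymphatic endothelium. Ace, which makes angiotensin II, stood at 813 CPM and 3.07 times fibroblasts, and Ece1, which cuts pro-endothelin, at 555 CPM, against 874 CPM in lymphatic endothelium. The potassium channels Kcnn4 and Kcnn3 stood at 137 and 44.4 CPM. Ptgis, prostacyclin synthase, had 702 CPM in 91.7% of cells, against 1059 CPM in smooth muscle. A further 7 list members were at 0.

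Genes of clotting and its control were present on both sides. Of 23, 15 were measured and 2, Vwf and Selp, passed the 4-fold rule. The anticoagulant receptor Thbd (thrombomodulin) stood at 403 CPM in 79.3% of BEC and 9.35% of smooth muscle cells, 1.8 times fibroblasts, and its partner Procr, the protein C receptor, at 236 CPM, 1.73 times lymphatic endothelium. Gas6, a vitamin K-dependent ligand of the Axl family, stood at 713 CPM, 1.36 times fibroblasts. Anxa2 and S100a10, which together bind plasminogen and its activator, stood at 701 and 497 CPM, below lymphatic endothelium with 1007 and 1805 CPM.

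Flow-regulated genes of both kinds were expressed. Of 20 genes known as raised by laminar flow, 17 were measured and 4 passed the 4-fold rule (Klk10, Gja5, Nos3 and Tek), with a median log2 ratio of 0.51. Klf2, the main flow-responsive factor, stood at 1965 CPM in 95.4% of BEC and 81.3% of smooth muscle cells, 1.69 times lymphatic endothelium, whereas Klf4, at 802 CPM, lay under the fibroblast level of 1823 CPM. Cav1, the main protein of caveolae, stood at 1213 CPM, 1.43 times lymphatic endothelium. Of 20 genes known as raised by disturbed flow or inflammation, 12 were measured and 4 passed: Edn1, Vcam1, Bmp4 and Icam2. Vcam1, which binds leukocyte integrins, stood at 999 CPM in 81.1% of BEC and 7.49% of smooth muscle cells, 7.34 times fibroblasts (6.75 to 7.99). Bmp4, a secreted BMP ligand, stood at 1016 CPM, 7.69 times fibroblasts. Icam1 stood at 414 CPM, 1.46 times lymphatic endothelium, and the matricellular genes Thbs1 and Ctgf at 429.8 and 165 CPM. E-selectin, Sele, had 31.2 CPM in 4.15% of BEC and 0.0241% of smooth muscle cells, Ccl2 had 1 UMI and Angpt2 5.

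Junction genes followed the pan-endothelial pattern. Of 20 symbols 16 were measured and 4 passed the 4-fold rule: Pecam1, Esam, Gja5 and Cgnl1 (388 CPM, 5.69 times lymphatic endothelium), the last a cingulin-like protein of junctions. Ctnnb1, β-catenin, was level with lymphatic endothelium, at 637 and 640.1 CPM. Of 16 glycocalyx genes 11 were measured and none passed. The sialomucin Podxl stood at 661 CPM, 2.17 times lymphatic endothelium, and the syndecan Sdc1 at 322 CPM, 3.51 times, while Sdc2 at 106 CPM lay under fibroblasts with 219 CPM. Hspg2, perlecan, stood at 408 CPM, against 615 CPM in smooth muscle.

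Matrix genes were abundant but rarely passed the 4-fold rule. Of 31, 26 were measured, 2 passed the 4-fold rule and 16 were higher in another class, a median log2 ratio of -0.99. Those that passed were Fbln2, fibulin 2 (954 CPM, 5.29 times fibroblasts, 4.89 to 5.72) and Col8a1, a short-chain collagen (195 CPM, 5.32 times fibroblasts). Fbln5, needed for elastic fibres, stood at 2040.3 CPM, 3.62 times smooth muscle, and Ltbp4, of the same process, at 2057 CPM, 1.23 times lymphatic endothelium. The basement membrane collagen Col4a1, at 394 CPM, lay under smooth muscle with 1036 CPM, as did Fn1 with 1532 CPM in BEC, against 4027 CPM.

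Receptors and factors of growth signalling gave few genes past the 4-fold rule. In the TGF-β and BMP list 19 of 21 were measured and 2 passed, Bmp4 and the inhibitor Smad6 (192 CPM, 6.12 times smooth muscle). The receptors Acvrl1 and Bmpr2 stood at 268 and 312 CPM, 2.74 times fibroblasts and 2.33 times lymphatic endothelium, and their target Id1 at 388 CPM, 2.54 times smooth muscle. In the VEGF, angiopoietin and apelin list 11 of 20 symbols were measured and 2 passed, Tek and Flt1. Nrp1 stood at 509.6 CPM, 1.31 times fibroblasts, while Nrp2 had 1 UMI and Aplnr none. Of 36 transcription factors 25 were measured and 3 passed, Sox17, Gata2 (183 CPM, 8.72 times lymphatic endothelium) and Mecom. Gata6, at 399 CPM, was 2.82 times fibroblasts, and Sox18, at 200.5 CPM, was level with lymphatic endothelium at 199 CPM. Erg, an ETS factor of endothelium, stood at 99.6 CPM.

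Class II genes were low in BEC and class I genes abundant, and no interferon, class I or class II gene passed the 4-fold rule. None of the 6 measured of 14 type I interferon genes, the 10 of 13 interferon gamma genes or the 3 of 7 class II genes passed. The interferon gamma list summed to 822 CPM in BEC, against 769 CPM in lymphatic endothelium and 87.1 CPM in smooth muscle (median log2 ratio -0.03). The type I list summed to 498 CPM, against 1689 CPM in lymphatic endothelium. Cd74, the class II chaperone, had 22.8 CPM in 4.61% of BEC and 2.44% of smooth muscle cells, against 6616 CPM in leukocytes. The class I list summed to 7437 CPM, against 8666 CPM in leukocytes. Its 13 genes had 12 measured, of which none passed and 8 were higher in another class. Their median log2 ratio was -0.43, near the -0.41 of all genes. H2-D1 stood at 2618 CPM, against 2407 CPM in leukocytes and 135 CPM in smooth muscle. H2-K1 stood at 1989 CPM, against 2575 and 122 CPM in those classes. These class I genes are close paralogs, so their split is uncertain. Of 19 endothelial activation genes 12 were measured and 3 passed (Vcam1, Selp and Cx3cl1, a membrane-bound chemokine at 62.4 CPM). Of 17 genes of endothelial-to-mesenchymal change 12 were measured and none passed: Vim stood at 3086 CPM, against 4779 CPM in smooth muscle, and Acta2 and Tagln, smooth muscle genes, at 432 and 226 CPM, against 24436 and 15948 CPM there.

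The 217 cells were not uniform. Clustering the BEC of both libraries together placed 213 control cells (98.2%, 95.3% to 99.5%) in clusters called large-artery-like. In these a larger share of the large-artery markers than of any other vessel's markers reached 50 CPM. A cluster was left unnamed on a tie, or where leukocyte markers outnumbered its own markers among its leading genes. The 213 cells fell into 3 groups, described with no test because the clustering used the same genes. Group A held 142 cells (65.4%, 58.7% to 71.7%), with a median of 4780.5 UMIs and 7.23% mitochondrial UMIs per cell. Group B held 55 cells (25.3%, 19.7% to 31.7%), with 9863 UMIs and 4.32% mitochondrial UMIs, and group C 16 cells (7.37%, 4.27% to 11.7%), with 7764 UMIs and 5.73%. Depth and mitochondrial share thus moved with the groups, and their part in what follows was not tested. The remaining 4 cells lay in clusters made up mainly of LCWE cells. One of them had 19 venous, 6 capillary and 7 large-artery marker UMIs. The other 3 had 19 to 29 leukocyte marker UMIs beside 76 to 217 large-artery ones. Their doublet scores were 0.0908 to 0.22, against a class median of 0.0228. The control cell with the most leukocyte marker UMIs, 43, was not among these 4 but lay in 1 of the 3 groups.

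Immediate-early genes respond within minutes to many stimuli, tissue dissociation included. They were among the leading genes of group B, and their median share was also higher in C than in A. The cluster that holds group C was led by other genes, Sema3g and Cldn5 among them. The part of dissociation in these values was not tested. The 21 listed genes took a median of 2.50% of UMIs per cell in B (0.74% to 6.29%) and 2.22% in C (0.16% to 4.21%), against 0.28% in A (0.08% to 0.98%). Over the whole class the median was 0.45%, with an upper quartile of 1.88%, against 1.55% in smooth muscle cells and 2.76% in fibroblasts of the same library, so group A lay below, and groups B and C lay near, these other classes. Fos stood at 6327 CPM in B and 5837 in C, against 270.1 in A, a B over A ratio of 23.4 (20.4 to 27.1). Atf3 stood at 1169.6 and 1289 CPM in B and C, against 22.2 in A, and Egr1 at 1882 and 2041, against 115. In B 16 of the 19 measured genes exceeded A at least 2-fold with an interval beyond 1.5. Among 2713 genes with at least 50 UMIs in the higher group, 134 (4.94%) did. List members did not have to reach that minimum, so the shares are not at the same threshold.

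Adhesion and flow genes differed between the groups in part. Of 12 measured endothelial activation genes 9 were at least 2-fold higher in B than in A and none was lower, and of 12 disturbed-flow genes 8 were higher and 1 lower. Of 2713 genes with at least 50 UMIs in the higher group, a minimum not set for list members, 134 (4.94%) were higher and 77 lower. The median log2 B over A ratio of all genes with at least 20 UMIs in A and B together was -0.04. Of 17 laminar-flow genes 3 were higher and 1 lower, a median log2 B over A ratio of -0.04. Vcam1 stood at 938 CPM in B and 2751 in C, against 614 in A, Icam1 at 543 and 822, against 210.1, and Edn1 at 1207 and 619.9, against 474. In C 1 cell held 147 Vcam1 UMIs, another 102 and no other over 25, so the level of Vcam1 in C rests mostly on single cells. Klf2 stood at 2586 and 3093 CPM, against 1249.9, and Klf4 at 1247 and 1177, against 333. Groups B and C, with 713082 and 143567 of the class's 1665902 UMIs, held most of the UMIs of these 5 genes. Their class levels are thus made mainly by the groups with the higher median immediate-early share.

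Artery genes were found in every group, at unequal levels. Of 19 arterial genes none was at least 2-fold higher and 2 were lower in B than in A, a median log2 ratio of -0.16. Over all 2713 genes compared, with a minimum of 50 UMIs not set for list members, 134 (4.94%) were higher and 77 lower. The median over all genes was -0.04. Sox17 stood at 249.6 CPM in B and 299.5 in C, against 313 in A, Gja5 at 533 and 404, against 549, and Cdh5 at 617 and 619.9, against 689. Gkn3 stood at 913 CPM in B and 383 in C, against 1080.3 in A. Klk10 was highest in A, with 554 CPM in B and 787 in C, against 883, a B over A ratio of 0.627 (0.553 to 0.711). Cytl1 likewise stood at 8413 and 6241 CPM, against 12798 in A. Group C was low in several genes that the other groups had: Apoe, the lipid carrier, stood at 153 CPM in C, against 2956 in A and 3492 in B, and Adh7 at 160.2, against 798 and 752. It was higher in Cldn5 (2111 CPM, against 1519 in A and 331 in B) and in Sema3g (272 CPM, against 86.1 and 18.2). With 16 cells, C is read as a range of states and given no name.

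**Figure D4:**
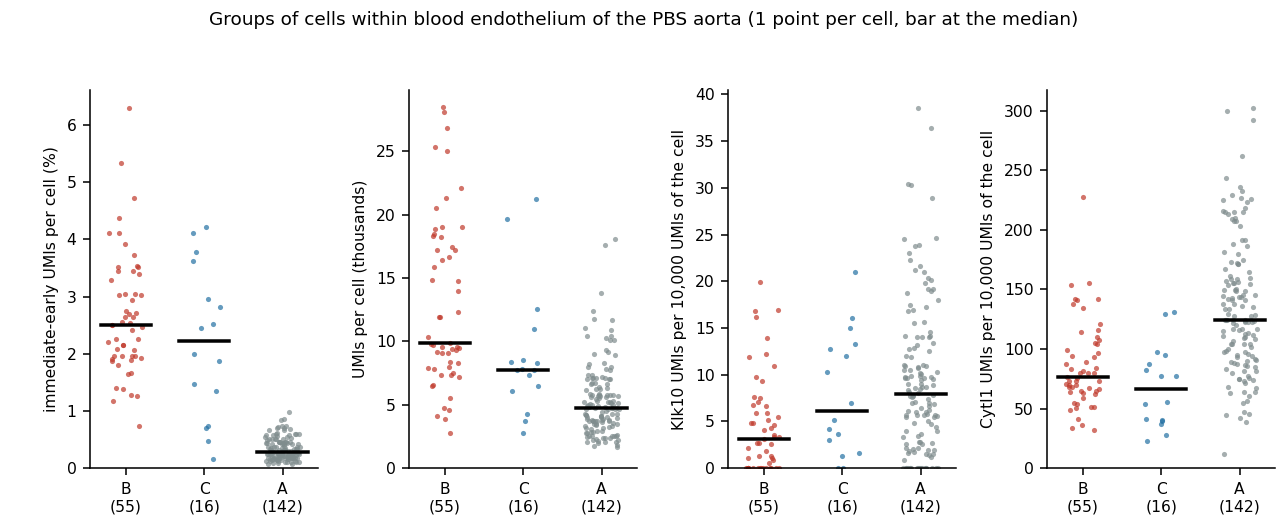
Immediate-early share (percent of UMIs), UMIs per cell and Klk10 and Cytl1 (UMIs per 10000) in each control blood endothelial cell of groups B, C and A; each point is a cell and bars are medians, with 4 cells outside the groups not shown. Groups B and C lie above A in the immediate-early share (medians 2.50% and 2.22%, against 0.28%), and A lies highest in Cytl1.

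The design sets LCWE against PBS, so each control level has a counterpart in 239 LCWE BEC (2973056 UMIs, median 10121 per cell). The cells of the libraries lay mostly in different clusters. Groups A and B held 142 and 55 control cells and 6 and 2 LCWE cells, while 80 LCWE cells shared group C with 16 control cells. A large-artery-like cluster with no control cell held 67 LCWE cells. A further 45 and 39 lay in unnamed clusters, 1 with capillary and venous markers and 1 led by leukocyte genes, beside 1 and 3 control cells. The clustering was not corrected for library. A change in which cells are present, changed expression in the same cells and a library effect therefore cannot be told apart. For many genes the value in large-artery-like cells alone is therefore given too. Markers of several other cell types were also higher in LCWE BEC: leukocyte markers summed to 680 CPM, against 82.8 CPM in PBS BEC, smooth muscle markers to 2001, against 905 CPM, and haemoglobin and other red-cell genes to 5243, against 69.6 CPM. Fibroblast markers summed to 1385 CPM in LCWE BEC, against 1474 CPM in PBS BEC, and pericyte markers to 42.7, against 123 CPM. The part of these in the differences was not tested, and with 1 pool a condition, condition and pool cannot be told apart.

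Of 6464 genes that reached 50 UMIs in the higher of the libraries, 541 (8.37%) were at least 2-fold higher and 314 (4.86%) at least 2-fold lower in LCWE BEC with the interval wholly beyond 1.5-fold. Of the 123 genes that passed the 4-fold rule in control BEC, 3 were higher and 59 lower. They were chosen for high control values, so a share of lower ones above the background follows in part from the choice and nothing is read from it. With large-artery-like cells alone 345 were higher and 304 lower.

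The kallikreins and several other genes that mark the control cells were lower in LCWE BEC, while Edn1 and Vwf, secreted and among the 25 genes with the highest control ratios, did not meet the rule. Klk10 stood at 54.5 CPM in LCWE BEC, against 716 CPM in PBS BEC, a log2 ratio of -3.71, and -3.35 in large-artery-like cells. Klk11 stood at 6.05 CPM, against 75.6 CPM in PBS BEC (log2 -3.64), Klk8 at 28.9, against 154 (log2 -2.41), and Cytl1 at 1578, against 10129 (log2 -2.68). In group C alone, the 1 group both libraries share to any extent, Cytl1 differed by a log2 of -0.46 and Klk10 by -2.08. The size of the Cytl1 difference thus depends on which cells are compared, and group C has 16 control cells. These were grouped with LCWE cells by likeness in expression, so smaller differences within group C follow in part from the grouping. Gkn3 stood at 194 CPM in LCWE BEC, against 935 CPM in PBS BEC (log2 -2.27), and Adh7, the dehydrogenase, at 73.7, against 712 (log2 -3.27). In large-artery-like cells their log2 ratios were -1.91 and -3.10, and in group C -0.43 and 0.17.

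The 10 lowest genes by ratio also held a pair of basement membrane collagens that lie head to head. Col4a3 stood at 2.02 CPM in LCWE BEC, against 94.8 CPM in PBS BEC, a log2 ratio of -5.55, and Col4a4 at 7.06, against 251 (log2 -5.15). Adra2a, an α2-adrenergic receptor, stood at 12.1 CPM, against 241 CPM in PBS BEC (log2 -4.31), the phospholipase Pla2g5 at 1.68, against 50.4, and the dehydrogenase Adh1 at 6.39, against 116. Degs2, a sphingolipid enzyme, stood at 3.03 CPM, against 44.4 CPM in PBS BEC, and Perp, of desmosomes, at 3.7, against 47.4. In large-artery-like cells the log2 ratios of these 7 genes lay between -5.17 (Col4a3) and -3.14 (Perp). In group C the control cells themselves had 1 UMI of Pla2g5, 2 of Adh1, 2 of Degs2, 5 of Perp and 7 of Adra2a, and the log2 ratio there was -3.66 for Col4a3 and -2.28 for Col4a4. The size of these differences thus also depends on which cells are compared, and in group C it follows in part from the grouping by expression.

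Among the 10 highest were genes nearly absent from the control cells. Mdk, the growth factor midkine, stood at 177 CPM in LCWE BEC, against 1.8 CPM in PBS BEC (3 UMIs), a ratio of 98.4 (33.5 to 479). Lrg1, a secreted glycoprotein that modulates TGF-β signalling, stood at 439.6, against 4.8 CPM (ratio 91.5, 46.3 to 212). Matrix genes followed: Ltbp2 stood at 239, against 3.0 CPM, Tgfbi at 319, against 4.8 CPM, Vcan (versican) at 131, against 2.4 CPM, Vwa1 at 150.0, against 1.8 CPM, and Col15a1 at 173, against 3.0 CPM. Glycam1, the mucin ligand of L-selectin on high endothelial venules, stood at 126 CPM and Fscn1, an actin bundler, at 114 CPM in LCWE BEC, against 0 UMIs in PBS BEC, so at least 70.2 and 63.3 times higher. Aplnr, the apelin receptor of capillaries and veins, stood at 101 CPM, against 0 UMIs in PBS BEC, and was at 0 in the large-artery-like cells of both libraries. The log2 ratios of the other 9 genes in those cells lay between 3.57 (Col15a1) and 7.21 (Lrg1). The large-artery-like cells include the cluster of 67 LCWE cells that holds no control cell. Mdk, Ltbp2, Glycam1 and Vcan are among the leading genes of that cluster. Their ratios in large-artery-like cells thus follow in part from the grouping by expression.

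The functional lists moved in part, and the counts below stand beside 8.37% higher and 4.86% lower of all genes tested. Of the vasoactive genes tested 2 were higher and 7 lower of 18: Ptgs1 stood at 44.4 CPM in LCWE BEC, against 259 CPM in PBS BEC (log2 -2.54), Ptgis at 132, against 702 (log2 -2.42), and Ace at 388, against 813 (log2 -1.06). In large-artery-like cells these were -2.76, -2.06 and -0.91. Nos3 and Edn1 did not meet the rule, with log2 ratios of -0.75 and 0.22. Of 18 laminar-flow genes tested 3 were higher and 5 lower, and Klf2 and Klf4 were not among them (log2 -0.35 and -0.38), while Thbd stood at 142 CPM, against 403 (log2 -1.51). Of 16 capillary genes 8 could be tested and were higher, and of 15 venous ones 14 could be tested, of which 8 were higher and 2 lower. Members at or near 0 in control cells enter only where LCWE cells are high, so these counts had to lean that way. Fabp4, a fatty acid carrier, stood at 499 CPM, against 11.4 CPM in PBS BEC, and Kdr at 147, against 4.8. In large-artery-like cells these log2 ratios were 2.67 and 4.09, against 5.45 and 4.93 in all BEC.

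Arterial genes were not uniform between libraries, and several of the best known differed little. Sox17 stood at 262 CPM in LCWE BEC, against 280.3 CPM in PBS BEC (log2 -0.10), Gja5 at 489, against 519 (log2 -0.09), and Vwf at 1241, against 1263 (log2 -0.03). In large-artery-like cells these log2 ratios were -0.03, 0.28 and 0.21. Of 22 arterial genes tested 4 were higher (Hey1, Sema3g, Dll4 and Cxcr4) and 2 lower (Hey2 and Gkn3), against 8.37% higher and 4.86% lower of all genes tested. Dll4, low in control cells, had 71 CPM in LCWE BEC, against 13.8 CPM in PBS BEC. Pecam1 was lower, at 1833 CPM, against 4028 (log2 -1.14), and Cdh5 did not meet the rule, at 1125, against 645 (log2 0.80). In the endothelial activation list 8 of 17 were higher and 1 lower, against 8.37% and 4.86% of all genes tested. Of the 8, Ackr1 had 0, Ccl2 1, Il6 5, Angpt2 5, Lrg1 8 and Cxcl10 12 UMIs in control BEC and entered because LCWE cells were high. Vcam1 and Icam1 did not meet the rule and had log2 ratios of -0.92 and -0.75, and Sele one of 1.00, below the interval rule. Class II genes, which enter the same way, were higher in 6 of 6 tested, with Cd74 at 516 CPM, against 22.8 CPM. Of 10 interferon gamma genes 1 was higher and 5 lower, Irf1 among the lower ones (log2 -1.35), against the same 8.37% and 4.86% of all genes tested. The immediate-early genes, which differ between groups of control cells, bear on this comparison. Egr1 stood at 476 CPM in LCWE BEC, against 1044 CPM in PBS BEC (log2 -1.13). Without the 55 control cells of group B, and with all LCWE cells kept, the log2 ratio was 0.19. Group B is rich in Egr1 and was left out on the PBS side only, so the ratio had to rise and nothing is read from its sign.

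**Figure D5:**
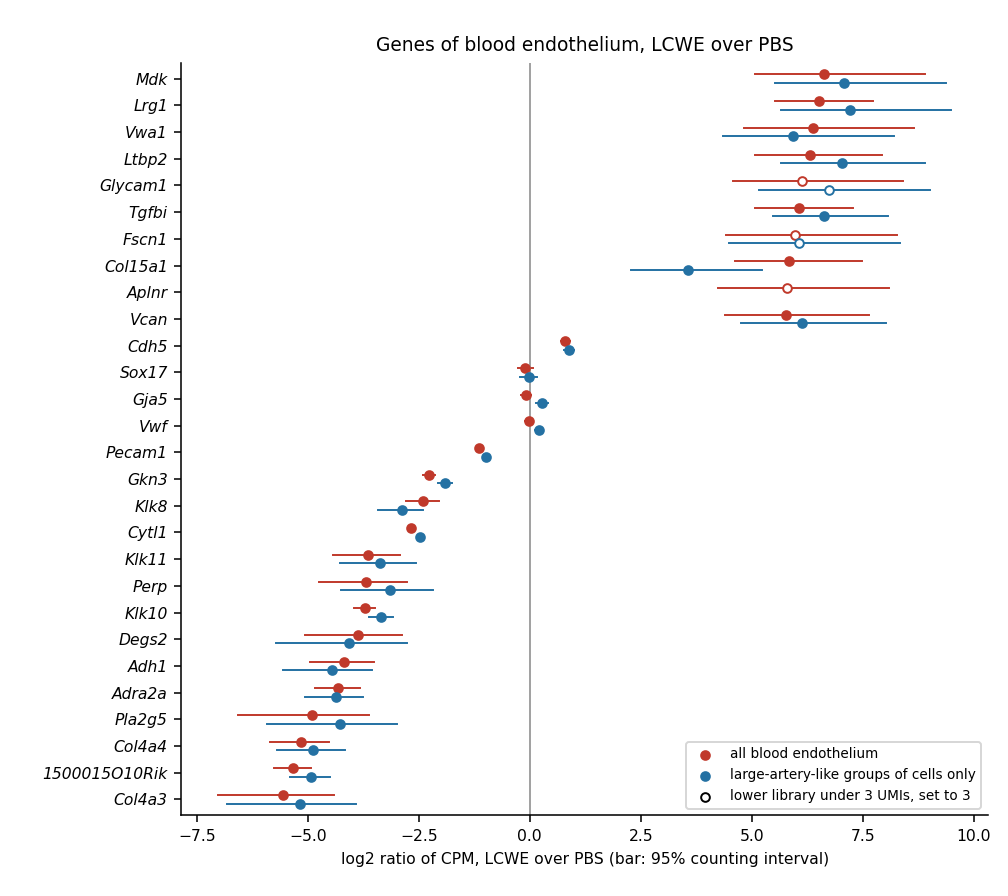
Log2 ratio of LCWE over PBS in blood endothelium with exact 95% intervals, for all cells of the class and for large-artery-like cells alone; open symbols mark ratios against the floor of 3 UMIs and 0 means no difference. Klk10, Klk11 and Cytl1 lie well left of 0 in both sets of cells, and Sox17, Gja5 and Vwf near 0.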

How the data were processed

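Droplet data of both conditions were read from the deposited tables, with 1 library a condition. The authors deposited unnormalized UMI counts for each gene in each cell, the percent of mitochondrial UMIs per cell, a doublet score from a caller they do not name, and a class for each cell. Per the submitters' processing notes, reads were processed with Cell Ranger 3.0.2 on mm10. The deposited dead-cell and doublet marks are negative for every listed cell, and no further cells were removed. The members, gene lists and markers were chosen with earlier results of these data known.

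Class levels are sums over cells, given as CPM (per 1000000 UMIs of the class). The 3′ counts hold 1 UMI per captured transcript and are not divided by gene length. Sums under 3 UMIs were raised to 3 for ratios, written as "at least" where the sum was 0. A gene passed in control BEC at 4-fold over the highest other class with a lower limit over 2, and between libraries at 2-fold with the interval beyond 1.5, with 50 UMIs each time. Cells were clustered with scanpy 1.11.5 and leidenalg 0.10.2 (1500 variable genes, 20 components, 15 neighbours, resolution 0.5). Scripts used Python 3.11.15, scipy 1.17.1 and pandas 2.3.3 and were tested on simulated data.

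Named were the 25 genes with the highest ratio over other classes (at least 100 UMIs, in 10% of cells, no cell with over 20% of the UMIs), the 15 most abundant, the 10 highest and 10 lowest LCWE over PBS ratios, up to 4 members of each list by UMIs, and all kallikreins and markers. For each group of cells the 8 leading genes were ranked. A few genes are not reported here. Members beyond these were picked after their values were seen. Left out of the ranks were markers of non-endothelial types and genes of haemoglobins, antigen receptors, ribosomes, mitochondria and sex chromosomes, and a gene without an approved name need not be named. Of the 435 list symbols 429 were in the files. Cyr61 and Ctgf are listed under these older symbols. Positions come from GENCODE vM21 (GRCm38), matched for 567 of 571 symbols. Alternatives changed the weight of cells, minimum UMIs, mitochondrial limit, smooth muscle-rich cells, depth (cells thinned to 2000 UMIs), the other classes, fold, scaling, clustering and cells compared.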

Additional observations from a re-analysis of the deposited data

How the results depend on the processing

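No paired analysis was possible because each condition is 1 pooled library, and no replicate could be left out. The count of 123 genes past the 4-fold rule in control BEC was between 123 and 126 with mean single-cell CPM, 20 UMIs, at most 10% mitochondrial UMIs (184 cells), the 10% of cells richest in smooth muscle markers left out, or, chosen after seeing the data, 124 without the 5 Cytl1-rich leukocytes. It was 45 in cells thinned to 2000 UMIs, where fewer genes reach 50 UMIs, 538 against all other cells summed, 52 at 8-fold, and 254 without lymphatic endothelium among the other classes (chosen after seeing the data). Dll1, Gata2 and Pfkfb3 lost the call with mean single-cell CPM, and Pfkfb3 also without the smooth muscle-rich cells.

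Lists with a median log2 ratio of at least 1 numbered 3 without the smooth muscle-rich cells and 3 in thinned cells, in place of 5. In thinned cells the medians of endothelial activation (-0.45), lipid uptake (0.27), Notch (0.89) and type I interferon (0.12) changed sign, and with 50 UMIs a member so did lipid uptake (0.40) and Notch (1.38). The share of control cells in large-artery-like clusters was 91.2% at resolution 0.3, 100% with PBS cells clustered alone and 99.5% in thinned cells, against 98.2%.

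Of 541 higher and 314 lower genes between libraries, 104 and 96 passed in thinned cells, 345 and 304 in large-artery-like cells, and 34 and 35 in group C (chosen after seeing the data). With lymphatic cells added the log2 ratio was -0.00926 for Acta2, -1.12 for Gpihbp1, -0.49 for Tagln and -0.13 for Thy1, each the other sign. Without PBS group B (chosen after seeing the data) it was 0.42 for Atf3, 0.19 for Egr1 and 0.49 for Zfp36, again the other sign. These genes are among those that lead group B, and all LCWE cells were kept, so these ratios had to rise. Within group C 15 of 82 genes changed sign: Ace 1.14, Acta2 -2.02, Apoe 0.90, Col8a1 -0.046, Dll1 0.19, Ets2 -0.39, Igtp 0.47, Lama4 -0.56, Lamb2 0.47, Mfap5 0.25, Nt5e 0.18, Pdgfb -0.47, Plaur -0.98, Sdc1 0.53 and Smad6 0.10. Group C joins cells of both libraries by likeness in expression, so smaller differences within it follow in part from the grouping. Except where noted, the cause of these changes was not tested. Genes under 20 UMIs in an alternative have no value there, and absence of a low gene cannot be shown at 1665902 UMIs.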

Other observations

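Metabolic, lipid and cycling genes of the control endothelium are given here as values. Of 20 hypoxia and glycolysis genes 15 were measured and 1 passed the 4-fold rule, Pfkfb3, the activator of glycolysis, at 79.2 CPM and 4.04 times smooth muscle (3.35 to 4.85). Gapdh stood at 390.2 CPM, against 707 CPM in smooth muscle and 1124 CPM in leukocytes, and Ldha at 239 CPM, against 509 CPM in leukocytes. Of 17 lipid and caveola symbols 7 were measured and 0 passed, a description from 1 library. Cav2 stood at 456 CPM, 1.44 times lymphatic endothelium, while the fatty acid carrier Fabp4 had 11.4 CPM, against 527 CPM there. Plpp3, a lipid phosphatase known as flow-regulated, stood at 264 CPM, against 1423 CPM in fibroblasts. The 6 cycling markers summed to 9.00 CPM in control BEC, 15 UMIs over 217 cells, against 506 CPM in leukocytes.

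Serpina1b, Serpina1d and Serpina1e, α1-antitrypsin genes best known from liver, had 110.5, 78 and 70.2 CPM in control BEC, in 9.22%, 10.1% and 15.2% of cells, and Serpina1a and Serpina1c were at 0. These genes are near-identical copies, so the split among them is uncertain. They stand outside the rule for named genes and were chosen after their values were seen. Apoe, the lipid carrier, stood at 378 CPM in LCWE BEC, against 3015 CPM in PBS BEC, where it was found in 73.3% of cells and in 24.6% of smooth muscle cells.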
